A study of Homo sapiens with 4 samples.

Results

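Cholesterol synthesis was followed through 8 genes, HMGCS1, IDI1, FDPS, FDFT1, SQLE, MSMO1, INSIG1 and SREBF2, chosen by gene symbol from the 33538 genes listed in each count matrix. None of them is an uptake receptor, so the set covers synthesis and its sterol regulators. The first 6 are enzymes of the pathway from acetyl-CoA to sterols. HMGCS1 makes the HMG-CoA that enters the mevalonate pathway, IDI1 isomerises the isoprene unit, FDPS builds farnesyl diphosphate, and FDFT1 joins farnesyl units into squalene. SQLE oxidises squalene, and MSMO1 removes methyl groups from the sterol ring. SREBF2 encodes SREBP2, the transcription factor that switches these genes on when membranes are short of sterols. INSIG1 encodes an endoplasmic reticulum protein that holds SREBP2 back with its escort SCAP when sterols are plentiful, and INSIG1 is itself a known target of SREBPs. Enzymes and INSIG1 are therefore usually described as a set that moves together.

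The cells were HCEC 1CT, colonic epithelial cells of human origin that TERT and CDK4 had immortalised, with wild-type APC before transduction. They carried shAPC, which is 1 shRNA directed at APC, or shScr, a scrambled one, were selected with puromycin, and were harvested 3 or 7 days after transduction for droplet single cell RNA sequencing. All 4 cultures grew in the same medium with EGF, hydrocortisone, insulin, transferrin, selenite and fetal bovine serum, a source of cholesterol. Each of the 4 groups was 1 library, so that a difference between 2 libraries has no replicate check, and no p-value is given. APC, the target of the shRNA, stood at 16.1 and 5.52 CPM (counts per 1000000 UMIs) in shScr and shAPC at day 3 and at 19.1 and 6.61 CPM at day 7.

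Cells had to show 200 genes or more, 500 UMIs or more and less than 5% mitochondrial UMIs, which left 788 to 2600 cells and 28451455 to 39797418 UMIs a library. Median depth was 35109 and 49685.5 UMIs a cell in shScr and shAPC at day 3 and 1330 and 21029.5 at day 7. The mitochondrial limit took 51.3% of barcodes in shAPC day 7 and 24.1% to 28.8% in the other libraries. Of the barcodes, 23 were shared by shScr and shAPC at day 3 and 25 by shScr and shAPC at day 7, with 2 to 7 in every other pair. Of 8 colonic epithelial markers, EPCAM, CDH1, VIL1 and CDX2 were under 1 CPM in all 4 libraries, and the list summed to 25.0 to 49.3 CPM. All 6 mesenchymal markers were over 1 CPM, with a sum of 8779 to 11340 CPM. The labelled epithelial type was thus not borne out by 4 of its 8 markers. The 4 blood markers summed to at most 0.658 CPM. The software version that wrote the matrices differed between shScr and shAPC, which cannot be told apart from the shRNA.

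Start regions are shown for 4 members, because sterol control of this pathway is known to act through short elements next to the start site. Of the 8 members, HMGCS1, IDI1, FDPS, MSMO1, INSIG1 and SREBF2, 6 in all, had an entry among the 35116 RefSeq promoters (GRCh38.p14), each searched over the 250 bases before the start on both strands. The motifs were the sterol regulatory element TCACNCCAC bound by SREBPs, the CCAAT box CCAAT bound by NF-Y, a known partner of SREBPs, the E-box CACGTG and the GC box GGGCGG. No motif contains another. The stretches below run 5′ to 3′ on the gene's strand. They stop where GENCODE starts the gene, except the INSIG1 E-box site, which lies inside the gene. Capitals mark a sterol regulatory element, a CCAAT box or an E-box in either orientation.
SREBF2 (chr22:41832855-41833104, plus strand): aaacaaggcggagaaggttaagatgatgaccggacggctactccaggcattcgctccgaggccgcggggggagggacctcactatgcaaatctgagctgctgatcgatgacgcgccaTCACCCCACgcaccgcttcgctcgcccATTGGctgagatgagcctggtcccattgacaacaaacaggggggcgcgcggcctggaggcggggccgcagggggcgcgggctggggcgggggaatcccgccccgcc
INSIG1 (chr7:155297628-155297775, plus strand): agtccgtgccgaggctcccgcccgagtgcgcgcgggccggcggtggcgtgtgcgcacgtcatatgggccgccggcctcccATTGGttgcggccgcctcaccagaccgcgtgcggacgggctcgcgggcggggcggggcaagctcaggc
INSIG1 E-box site (chr7:155297811-155297840, plus strand): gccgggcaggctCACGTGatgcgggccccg
HMGCS1 (chr5:43313513-43313662, minus strand): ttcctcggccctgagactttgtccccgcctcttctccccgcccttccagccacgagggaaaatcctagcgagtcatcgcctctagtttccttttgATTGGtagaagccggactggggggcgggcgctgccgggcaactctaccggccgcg
MSMO1 (chr4:165327419-165327666, plus strand): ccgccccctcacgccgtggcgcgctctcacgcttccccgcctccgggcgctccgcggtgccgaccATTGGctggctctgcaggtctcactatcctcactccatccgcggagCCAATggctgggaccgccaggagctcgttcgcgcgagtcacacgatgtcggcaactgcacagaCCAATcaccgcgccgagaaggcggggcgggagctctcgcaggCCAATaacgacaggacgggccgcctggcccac
The sterol regulatory element was found before SREBF2 alone among the 6 matched members, 133 bases from the RefSeq start, and in 310 of all 35116 promoters (0.883%). Only the string TCACNCCAC was searched, so a member without it may still hold another form of the element. A CCAAT box lay 106 bases from the same start. All 6 matched members had at least 1 CCAAT box, against 37.0% of all genes with an entry, and MSMO1 had 4 of them within its window. GC boxes were in all 6 as well, against 46.2% of genes. INSIG1 alone of these 6 held an E-box, 55 bases before its RefSeq start and inside the gene as GENCODE draws it, while 7.73% of genes had one. These are matches of letters, and no binding was measured here. As protein-coding genes in GENCODE, SREBF2 lies at chr22:41833105-41907306 and INSIG1 at chr7:155297776-155310235, both on the plus strand. HMGCS1 lies at chr5:43287470-43313512 on the minus strand, and MSMO1 at chr4:165327667-165343164 on the plus strand. IDI1 lies at chr10:1039152-1049119 on the minus strand and FDPS at chr1:155308748-155320666 on the plus strand.

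Levels are given as CPM of UMIs summed over the kept cells of a library, with exact Poisson 95% intervals that cover counting error only. The 3′ UMI counts do not grow with transcript length, so levels of different genes were set side by side as molecules. FDPS was the most abundant member in each library and HMGCS1 the least. In bulk sums over cells, fewer expressing cells and less RNA per cell cannot be told apart.

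HMGCS1 stood at 9.32 CPM (8.40 to 10.3) in shScr day 3, 4.66 (3.98 to 5.44) in shAPC day 3, 10.3 (9.25 to 11.5) in shScr day 7 and 4.82 (4.04 to 5.69) in shAPC day 7. Both shAPC libraries were at about the same low level and both shScr libraries at about the same high level, with no overlap of intervals between them. IDI1 stood at 21.6, 18.5, 31.3 and 21.3 CPM in the same order of libraries. Here shScr day 7 was the high library and the other 3 were closer together.

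FDPS stood at 67.0, 71.9, 81.1 and 44.6 CPM, so that shAPC day 7 was low and shAPC day 3 was not. Processed pseudogenes of FDPS share its sequence, and its counts are uncertain to that extent. FDFT1 behaved alike, at 44.6 and 45.0 CPM in shScr and shAPC at day 3, and at 50.2 and 33.4 at day 7. SQLE, the squalene epoxidase, stood at 45.5, 30.3, 53.0 and 40.7 CPM, lowest in shAPC day 3. MSMO1 stood at 24.1, 17.8, 30.0 and 15.6 CPM. Both of its shAPC libraries lay below both shScr libraries, as they did for HMGCS1 and SQLE.

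INSIG1, the brake on SREBP2, had its high levels in the shAPC libraries. It stood at 16.9 CPM (15.7 to 18.2) in shScr day 3, 46.4 (44.2 to 48.8) in shAPC day 3, 16.0 (14.6 to 17.5) in shScr day 7 and 22.6 (20.9 to 24.4) in shAPC day 7. The shScr libraries did not differ beyond counting error, and both shAPC libraries were above them. SREBF2, the factor itself, kept within 21.7 to 28.5 CPM, with shScr day 3 the highest and the 2 day 7 libraries at 21.7 and 22.1 CPM with overlapping intervals.

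**Figure D1:**
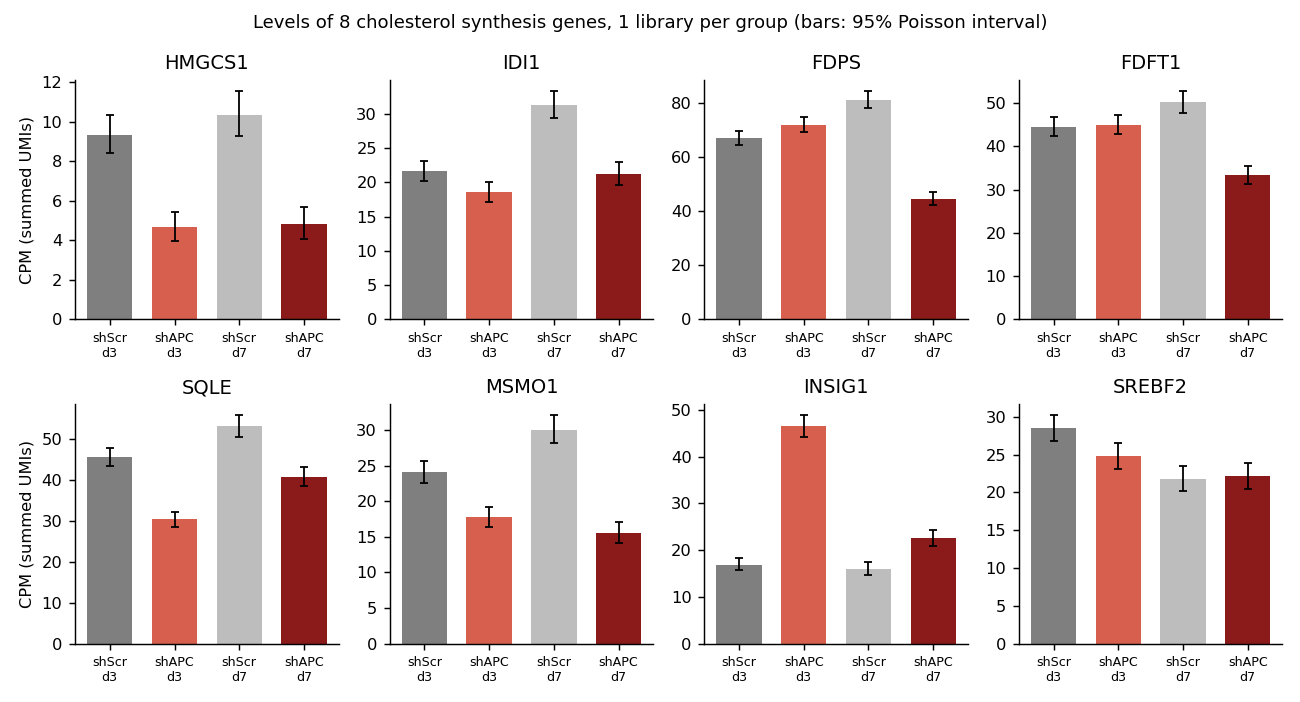
Level of each of the 8 genes in CPM in the 4 libraries, with bars starting at 0 and exact Poisson 95% intervals. HMGCS1 is at 4.66 and 4.82 CPM in the shAPC libraries against 9.32 and 10.3 in shScr, whereas INSIG1 peaks at 46.4 CPM in shAPC day 3.

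The first question was how the genes differed between shAPC and shScr at day 3. The difference is given as the log2 ratio of CPM with its counting interval, and then relative to the median log2 ratio of all genes tested, computed with a pseudocount of 1 CPM. Genes were tested where they reached 20 CPM in 1 of the 2 libraries, and called when past 1.5-fold relative to that median. The all-gene median at day 3 was 0.28, so a gene whose CPM was equal in the 2 libraries lay below most genes. With TMM scaling that median was -0.13, and the median of the members relative to it was -0.44.

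INSIG1 had a log2 ratio of 1.46 (1.33 to 1.59), or 2.75-fold, and 1.13 relative to the median, above 98.3% of the genes tested. HMGCS1 was at -1.14 relative to the median, with an interval of its log2 ratio from -1.27 to -0.73. SQLE had a log2 ratio of -0.58 (-0.70 to -0.47). MSMO1 was at -0.44 (-0.59 to -0.29). These 3 enzymes, which stand at the entry of the pathway and after squalene, were lower in shAPC on either scale. IDI1, which stands between them, was lower on either scale too, at -0.22 (-0.37 to -0.07) and at -0.48 relative to the median. FDPS and FDFT1 were at 0.10 (0.02 to 0.18) and 0.02 (-0.08 to 0.11) in plain CPM, and at -0.18 and -0.26 relative to the median, so their direction turned with the centring. SREBF2 was at -0.20 (-0.33 to -0.07).

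Of the 8 genes, 7 were tested at day 3, since HMGCS1 is under 20 CPM in each library. Calls were made for 3 of them, INSIG1 higher and SQLE and MSMO1 lower, where 10.9% of all tested genes were called, 5.93% higher and 4.99% lower. Both lower calls rest on the centring, since without it INSIG1 was the 1 member called, against 18.6% of genes. A gene near the 20 CPM limit can enter through its high library alone. With a limit on the mean of all 4 libraries of 5 CPM, which was chosen after seeing the data and which all 8 pass, HMGCS1 joined them and 4 of 8 were called against 10.4% of 9173 genes. All 6 enzymes lay below the all-gene median, with a median of the 8 genes of -0.48.

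At day 7 the enzymes were lower in shAPC as a set and INSIG1 was less apart. HMGCS1 had a log2 ratio of -1.10 (-1.40 to -0.81), MSMO1 of -0.95 (-1.11 to -0.78) and FDPS of -0.86 (-0.96 to -0.77). FDFT1 and IDI1 followed with -0.59 (-0.71 to -0.47) and -0.56 (-0.71 to -0.41). SQLE was the least low enzyme, at -0.38 (-0.49 to -0.27). All 6 intervals excluded 0, and the all-gene median was -0.10.

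INSIG1 at day 7 had a log2 ratio of 0.50 (0.32 to 0.67), or 1.41-fold, and 0.57 relative to the median, just inside the limit of 0.58. SREBF2 was at 0.03 (-0.13 to 0.18). FDPS and MSMO1 were called lower, 2 of 7 tested genes against 9.27% of all genes, 4.07% higher and 5.2% lower. On the mean limit of 5 CPM, HMGCS1 was called as well, which made 3 of 8 against 9.54%. Again 6 of 6 enzymes lay below the all-gene median, and the median of the 8 genes was -0.46.

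**Figure D2:**
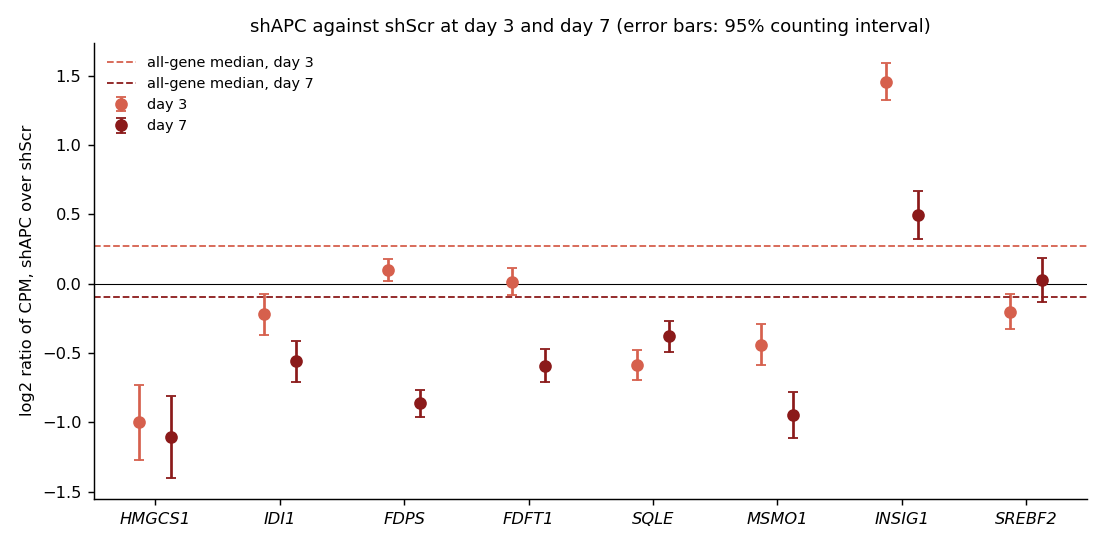
Log2 ratio of CPM, shAPC over shScr, of the 8 genes at day 3 (light) and day 7 (dark), with 95% counting intervals and the all-gene median of each day as a dashed line (0.28 and -0.10). INSIG1 is the gene far above both lines at day 3, and the 6 enzymes are all below 0 at day 7.

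The 2 days share no library, so the change of each ratio between them could be given with its own interval. In plain CPM FDPS and INSIG1 moved most, the log2 ratio at day 7 minus that at day 3 being -0.96 for each (-1.09 to -0.84 and -1.18 to -0.75). FDFT1 moved by -0.61 (-0.76 to -0.45), MSMO1 by -0.51 (-0.73 to -0.29) and IDI1 by -0.34 (-0.55 to -0.13). SQLE moved the other way, by 0.20 (0.05 to 0.36), as did SREBF2 by 0.23 (0.02 to 0.43). HMGCS1 moved by -0.10 (-0.50 to 0.29), an interval that includes 0. Relative to the all-gene medians of the 2 days these values rise by about the shift of the medians, and MSMO1 then differed by -0.12 and IDI1 by 0.04. On that scale SREBF2 (0.59), FDPS (-0.58), SQLE (0.57) and INSIG1 (-0.56) moved by like amounts, FDFT1 by -0.22 and HMGCS1 by 0.27.

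Summed, the 6 enzymes gave 212 and 188 CPM in shScr and shAPC at day 3, and 256 and 160 CPM at day 7. The log2 ratio of shAPC to shScr was -0.17 (-0.22 to -0.13) on the earlier day and -0.67 (-0.73 to -0.62) on the later. Relative to the all-gene median these were -0.45 and -0.58, so most of the growth between the days went with the median. INSIG1 UMIs per 100 enzyme UMIs, a ratio within a library that no scaling between libraries touches, were 7.97 (7.36 to 8.63) and 6.26 (5.70 to 6.85) in the shScr libraries. They were 24.7 (23.4 to 26.1) in shAPC day 3 and 14.1 (12.9 to 15.3) in shAPC day 7. The 2 shAPC libraries were therefore apart from both shScr libraries in this ratio.

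The makeup of the enzyme UMIs shifted too. FDPS took 31.6% of them in shScr day 3 and 31.7% in shScr day 7, but 38.2% in shAPC day 3 and 27.8% in shAPC day 7. SQLE took 21.4% and 20.7% in shScr, 16.1% in shAPC day 3 and 25.4% in shAPC day 7. The 2 shScr libraries resembled each other in both shares, and the shAPC libraries lay on either side of them.

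Between day 3 and day 7 in shScr, none of the 6 tested genes was called, against 6.87% of all genes, and none of 8 against 5.8% on the mean limit of 5 CPM. The 6 enzymes were all above the all-gene median of 0.05, from 0.08 for HMGCS1 to 0.46 for IDI1. SREBF2 was at -0.43 relative to that median, with a log2 ratio of -0.39 (-0.53 to -0.25). INSIG1 had a log2 ratio of -0.08 (-0.25 to 0.09). With each cell's CPM averaged instead of summed UMIs, 5 of 6 were called here, 4 higher and 1 lower, and the share of all genes called rose to 17.4%. The shScr day 7 library holds 1402 cells under 2000 UMIs, and the enzymes stood at 492 CPM in them against 246 CPM in its cells of 30000 or more.

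Between day 3 and day 7 in shAPC, SQLE was called higher and INSIG1 lower, 2 of 6 tested genes against 14.2% of all genes, 6.67% higher and 7.57% lower. On the mean limit of 5 CPM SQLE and INSIG1 were again called, 2 of 8 against 11.8%. The all-gene median was -0.34. SQLE rose from 30.3 to 40.7 CPM, a log2 ratio of 0.43 (0.30 to 0.55) and 0.75 relative to the median. INSIG1 fell from 46.4 to 22.6 CPM, a log2 ratio of -1.04 (-1.18 to -0.91) and -0.67 relative to the median. FDPS had a log2 ratio of -0.69 (-0.79 to -0.59) and FDFT1 of -0.43 (-0.55 to -0.32), and relative to the median they were at -0.34 and -0.09. Without centring the SQLE call was lost, at 0.41, and FDPS was called lower with INSIG1, at -0.68, against 25% of genes called. With no minimum level INSIG1 alone was called. The INSIG1 call was lost with all deposited barcodes, with a mitochondrial limit of 10% and with a pseudocount of 10 CPM. It was also lost without the 5% of cells with most UMIs, where the relative value of INSIG1 was -0.42.

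Depth per cell differed between the libraries, and the contrasts were read again within classes of depth. In cells of 30000 or more UMIs, INSIG1 was at 17.0 and 46.8 CPM in shScr and shAPC at day 3, and at 15.5 and 21.2 CPM at day 7. The enzymes in the same cells summed to 211 and 188 CPM on the earlier day and to 246 and 158 CPM on the later. In cells of 10000 to 30000 UMIs the log2 ratios at day 7 were -0.64 for the enzymes and 0.52 for INSIG1, against -0.65 and 0.46 in the deeper cells. Both day 7 contrasts were thus about as large within each of the 2 deep classes. At day 3 the same cells gave 1.37 and 1.46 for INSIG1 and -0.37 and -0.17 for the enzymes, in the order of depth. In cells of 2000 to 10000 UMIs, where INSIG1 had 7 and 11 UMIs at day 3, its log2 ratio was -0.24 with an interval from -1.85 to 1.25, and no difference was detectable at this depth.

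**Figure D3:**
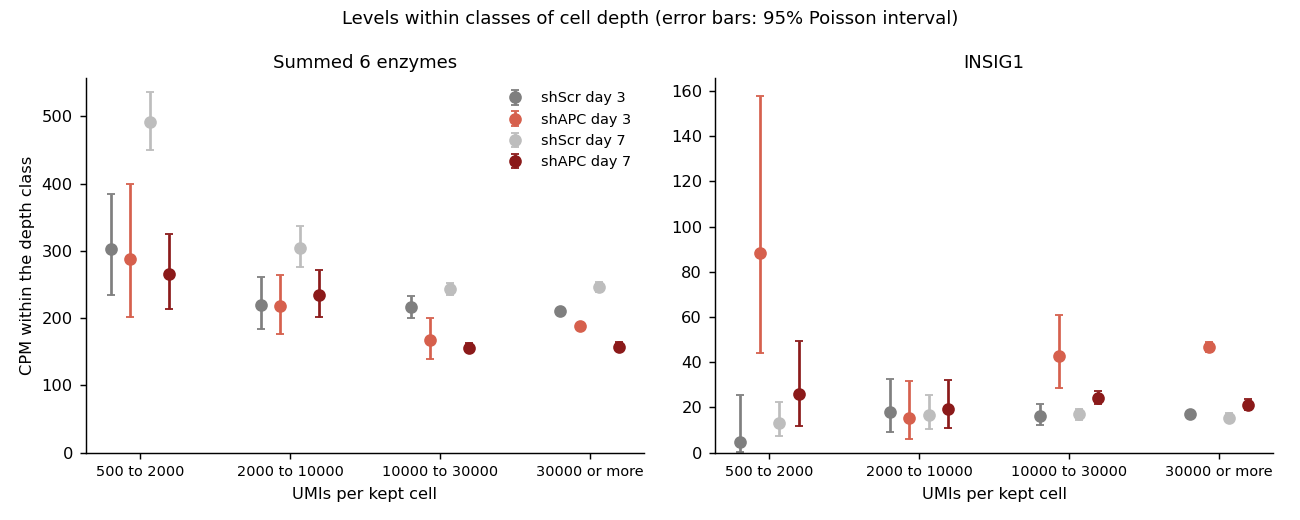
CPM of the summed 6 enzymes and of INSIG1 in kept cells of 4 depth classes, with exact Poisson 95% intervals. The shallow shScr day 7 cells stand apart at 492 CPM of enzymes, while in the 2 deep classes INSIG1 is highest in shAPC day 3 and next in shAPC day 7.

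Barcodes over the mitochondrial limit, which the comparisons leave out, gave INSIG1 at 24.9 and 35.1 CPM in shScr and shAPC at day 3, and at 16.8 and 28.7 CPM at day 7. The enzymes summed to 259, 195, 265 and 168 CPM in them. The shAPC library was above shScr for INSIG1 and below it for the enzymes on both days, as in the kept cells.

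Shares of cells with a UMI were compared after thinning each cell to 10000 UMIs, which kept 765, 576, 919 and 927 cells and left out the shallower ones. SQLE was seen in 36.2% (32.8 to 39.7) of shScr day 3 cells, 22.0% (18.7 to 25.7) of shAPC day 3 cells, 38.0% (34.8 to 41.2) of shScr day 7 cells and 31.5% (28.5 to 34.6) of shAPC day 7 cells. FDPS was seen in 45.1%, 47.9%, 44.9% and 30.5% of cells in that order, so that at this depth only shAPC day 7 stood low. HMGCS1 was seen in 9.02%, 5.56%, 8.71% and 6.15%, a share that counts few UMIs per library. The planned main depth was 2000 UMIs. There FDPS was seen in 12.6% (10.2 to 15.4) of shAPC day 3 and 10.8% (8.98 to 12.8) of shAPC day 7 cells, with overlapping intervals. SQLE intervals at that depth overlapped at day 7, with 8.43% (6.92 to 10.1) in shScr and 6.16% (4.81 to 7.76) in shAPC. At day 3 they stayed apart, with 10.0% (8.13 to 12.2) and 4.31% (2.90 to 6.13). Unthinned, SQLE had a UMI in 55.4%, 53.7%, 29.4% and 40.6% of kept cells, lowest in the library with the lowest median depth. A single cell line holds no cell type that should lack these genes, so a background share from free RNA could not be given.

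Cells with no UMI of any of the 6 enzymes made up 14.1% and 12.3% of the thinned shScr cells at day 3 and day 7. They were 22.0% and 23.9% of the shAPC cells. The median cell had 2 enzyme UMIs in the first 3 libraries and 1 in shAPC day 7. The lower enzyme level in shAPC was therefore seen in the share of cells as well as in the sum.

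INSIG1 was spread over cells more unevenly in shAPC day 3 than in any other library. A UMI was seen in 25.2% (21.7 to 28.9) of its thinned cells, against 15.6% in shScr day 3, 14.3% in shScr day 7 and 16.2% in shAPC day 7. Cells with 3 or more INSIG1 UMIs were 21 of 576 in shAPC day 3 (3.65%, 2.27 to 5.52), and they held 38.0% of its 250 INSIG1 UMIs. The other libraries had 2 of 765, 3 of 919 and 8 of 927 such cells. The variance over the mean was 2.54 in shAPC day 3, with up to 11 UMIs in a cell, and 1.13, 1.22 and 1.30 in shScr day 3, shScr day 7 and shAPC day 7. For the 6 enzymes this ratio ran from 1.01 to 1.57 in the 4 libraries, highest for FDPS in shScr day 3.

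**Figure D4:**
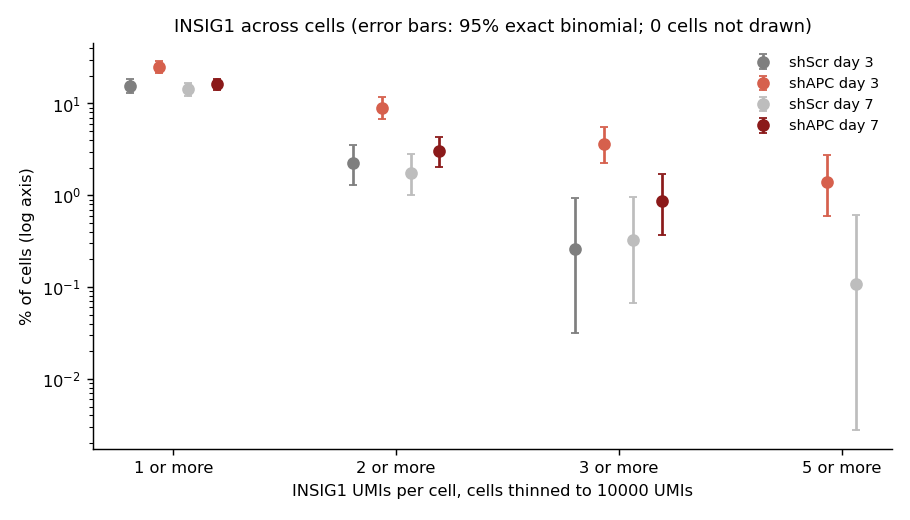
Percent of cells with at least 1, 2, 3 or 5 INSIG1 UMIs after thinning to 10000 UMIs, on a log axis, with exact binomial 95% intervals. In shAPC day 3, 8 cells hold 5 or more UMIs, against 1 cell in shScr day 7 and 0 in the other libraries.

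Cells with INSIG1 were looked at for the enzymes. In shScr day 3, cells with an INSIG1 UMI had 272 CPM of enzymes (243 to 304) and cells without had 214 (203 to 226). In shAPC day 3 the values were 211 (188 to 236) and 176 (164 to 189). In shScr day 7 they were 292 (264 to 323) and 228 (217 to 238), and in shAPC day 7 182 (161 to 205) and 154 (145 to 163). Within each library the enzymes were thus at a higher level in the INSIG1-positive cells, with intervals that touched in the shAPC libraries, whereas between libraries of the same day INSIG1 was higher where the enzymes were lower.

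Splits by 2 other genes were made after the data were seen. In shAPC day 3, the 60 thinned cells with a UMI of the stress factor ATF3 had INSIG1 at 81.7 CPM (60.4 to 108), and the 516 without had 39.0 (33.8 to 44.7). The shScr day 3 cells without ATF3 had 17.9 CPM (15.1 to 21.2). Cells with a UMI of TOP2A, a gene of dividing cells, had 24.2 CPM (17.0 to 33.3) in shAPC day 3 and cells without had 50.4 (43.8 to 57.6). In shScr day 3 the intervals overlapped in both splits, with INSIG1 at 22.6 CPM in cells with a TOP2A UMI and 16.8 in cells without. Only 7 cells of that library had an ATF3 UMI. In shAPC day 7 neither split repeated the day 3 direction, with INSIG1 at 23.5 CPM with and 19.4 without TOP2A, and at 5.88 in the 17 cells with ATF3 (1 UMI) and 20.4 without, and the intervals overlapped in both. In shScr day 7 both splits ran in the direction of shAPC day 3, with overlapping intervals. INSIG1 was at 40.0 CPM in the 20 cells with ATF3 (8 UMIs) and at 16.0 without. With and without TOP2A it was at 14.2 and 17.4 CPM there. The part of stress or division in the INSIG1 level was not tested.

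The 8 genes were only loosely linked from cell to cell. Over the 28 pairs, the median Pearson's r of log-transformed thinned counts was 0.05 in shScr day 3, 0.04 in shAPC day 3, 0.05 in shScr day 7 and 0.05 in shAPC day 7, in 576 to 927 cells that share a library and depth. SQLE and MSMO1 had the highest mean r, at 0.10, and IDI1 and MSMO1 followed with 0.09. In counts this sparse such values are no finding. By the same measure, the genes most like the sum of the 8 were ANXA2, HSP90AA1, PKM, ACTB, TPI1, CALM2, IGFBP7, ENO1, TUBB4B and TMBIM6, with mean r from 0.13 to 0.18 over the 4 libraries among 3371 genes. They are abundant genes, and an abundant gene can reach a higher r in sparse counts.

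A list of 60 further genes of sterol and SREBP biology gave the setting. Between 21 and 23 of them were tested in each comparison, and at day 3 none was called higher and 4 lower, against the 5.93% and 4.99% of all genes. At day 7, 1 was called higher and 3 lower, against 4.07% and 5.2%. The median of the tested genes relative to all genes was -0.07 at day 3 and 0.00 at day 7. The mean limit of 5 CPM was not applied to this list, so a listed gene could enter through its high library alone.

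Of the 11 sterol enzymes listed, 3 were tested on each day, and ERG28, a scaffold of the sterol demethylation enzymes, was called lower on both. ERG28 stood at 31.8 and 23.5 CPM in shScr and shAPC at day 3, and at 35.9 and 20.7 CPM at day 7. Its day 3 call rests on the centring, since the plain log2 ratio was -0.43. Of 12 mevalonate and isoprenoid enzymes, 4 and 5 were tested, and ACAT2, the cytosolic thiolase before HMGCS1, was called lower at day 7. Its levels were 15.8, 12.6, 23.8 and 11.2 CPM, so that it passed 20 CPM in shScr day 7 alone. Both genes, like MSMO1, were lowest in shAPC day 7.

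Among 10 genes listed as SREBP-linked fatty acid genes, 5 were tested and SCD, FASN and FADS2 were called lower at day 3, SCD alone at day 7, where 4.99% and 5.2% of all genes were. SCD, the stearoyl-CoA desaturase, stood at 46.2, 18.0, 38.0 and 13.9 CPM, with log2 ratios of -1.36 (-1.49 to -1.23) and -1.45 (-1.62 to -1.28). Both shAPC libraries were far below both shScr libraries, and SCD passed 20 CPM in the shScr libraries alone. FASN, the fatty acid synthase, was at -0.32 and FADS2, a desaturase of polyunsaturated fatty acids, at -0.37 at day 3. FASN passed the limit by little, at -0.59 relative to the median. Both of these calls rest on the centring, whereas SCD was past 1.5-fold without it.

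The lists of uptake and transport, of efflux and oxysterols, and of SREBP processing hold 11, 9 and 7 genes. Of these, 5, 3 and 3 were tested at day 3. None of the tested genes was called, where 10.9% of all tested genes were. At day 7 LRP1, an endocytic receptor of lipoproteins and other ligands, was called higher in shAPC. It stood at 101 and 97.1 CPM in shScr and shAPC at day 3 and at 69.5 and 104 at day 7, so that shScr day 7 was the library apart. LRP1 was also called lower from day 3 to day 7 in shScr, 1 of 22 listed genes tested against 6.87% of all genes. Both LRP1 calls rest on the centring, since its plain CPM differed by under 1.5-fold each time (1.498-fold at day 7). MBTPS1, a protease that releases SREBPs, was called higher from day 3 to day 7 in shAPC, from 28.9 to 34.9 CPM and 0.60 relative to the median. Its plain change was under 1.5-fold, so this call rests on the centring. ABCA1, the exporter of cholesterol, was called lower in the same comparison, from 26.3 to 13.1 CPM, and passed 20 CPM at day 3 alone. Of 22 listed genes tested in that comparison, 1 was called higher and 1 lower, against 6.67% and 7.57% of all genes.

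**Figure D5:**
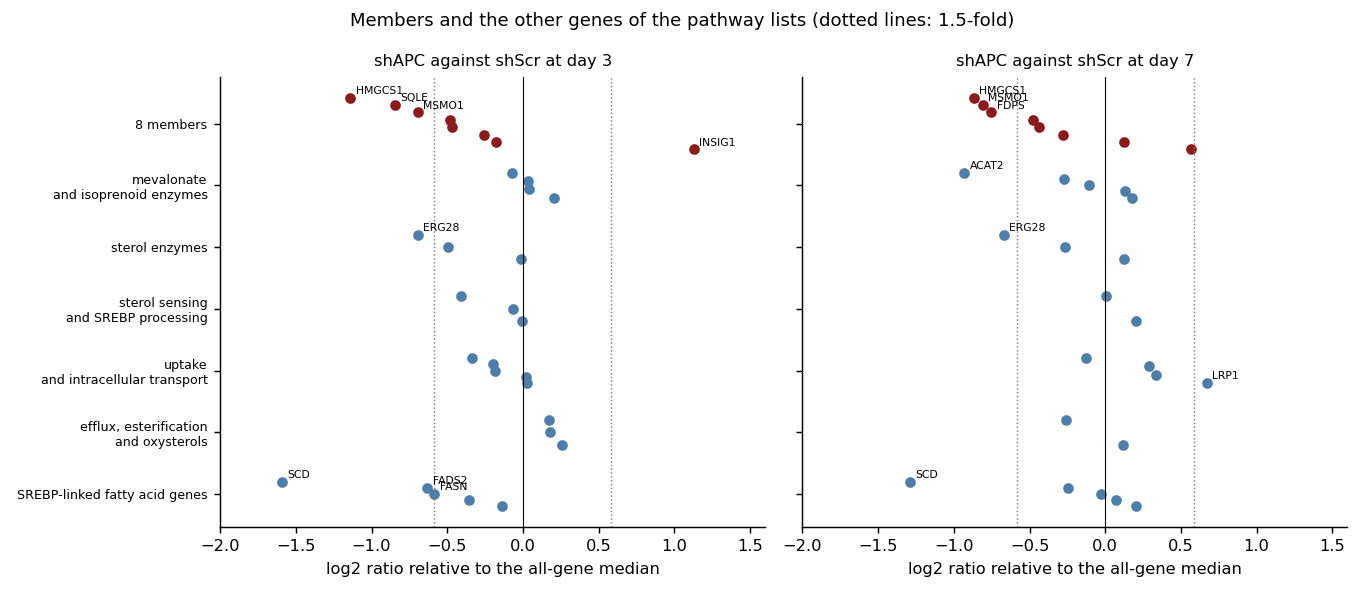
Log2 ratio relative to the all-gene median, shAPC against shScr, of the 8 genes (top row) and of the tested genes of 6 further lists at day 3 (left) and day 7 (right), with dotted lines at 1.5-fold. SCD is the lowest gene on both days, and INSIG1 is the 1 gene past the upper line at day 3.

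CH25H, which makes an oxysterol known to bind INSIG proteins, was singled out after its values were seen, being under the 20 CPM limit. It had 190 UMIs in shAPC day 3 (5.44 CPM, 4.69 to 6.27) and 12, 9 and 5 UMIs in shScr day 3, shScr day 7 and shAPC day 7 (0.302, 0.288 and 0.176 CPM). The library with most INSIG1 was thus also that with most CH25H, with a log2 ratio to shScr of 4.17 (3.33 to 5.15) at day 3. Any link between the 2 was not tested.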

How the data were processed

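Single cell RNA sequencing was done on HCEC 1CT cells with shAPC or shScr at day 3 and day 7, 1 library per group. The virus is retroviral in the labels and lentiviral in the methods, and the 10x Genomics kit is v2 in the labels and V3 in the methods. The authors aligned the reads to hg38 with Cell Ranger, which uses STAR, and deposited raw UMI counts per gene and barcode. The headers of the shScr matrices name Cell Ranger 3.0.2 and those of the shAPC matrices 3.0.0, the methods 3.0.0 and the submitters' processing notes 3.0.2. The annotation release is not given in the sources used here.

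Barcodes with at least 200 genes, 500 UMIs and under 5% of UMIs from 13 mitochondrial genes were kept, which left 75.9% and 75.3% of the barcodes of shScr and shAPC at day 3 and 71.2% and 48.7% at day 7. No doublets were called or removed, and leaving out the 5% of cells with most UMIs was an alternative. UMIs were summed per library and scaled to CPM. CPM have exact Poisson, shares exact binomial (Clopper-Pearson) and ratios exact conditional 95% intervals, the change of a ratio between days a normal approximation on the log scale. PCR and culture variation are not in them. Relative log2 ratios used a pseudocount of 1 CPM, genes that reached 20 CPM in either library and a limit of 1.5-fold. The computation was tested on simulated data. The study's ComBat correction and imputation were not applied, and with 1 library per group no test between groups was made.

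The members and the gene lists were chosen with earlier results of these data known. Named in the text are the 8 members, APC, and listed genes of at least 20 CPM called in at least 1 comparison. So are the 10 genes with the highest mean r to the summed members. They were ranked among genes seen in at least 20% of cells thinned to 10000 UMIs. CH25H, ATF3, TOP2A, GRAMD1A, FADS1, SOAT1 and HSD17B7 were added after the values were seen. Some genes of the pathway are not reported here. Promoter sequences are RefSeq's (GRCh38.p14) and gene starts GENCODE's. Python 3.11.15, numpy 2.4.6, scipy 1.17.1, pandas 2.3.3 and R 4.3.3 were used, with TMM factors from edgeR 4.0.16 and size factors from DESeq2 1.42.0 as alternatives. In all, 14 alternatives were run, of which 13 were planned.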

Additional observations from a re-analysis of the deposited data

Results flagged for a closer look

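In shAPC against shScr, LRP1 and MBTPS1 lay on opposite sides of the all-gene median at the 2 days with counting intervals clear of it on both, and the difference between days was not tested, since each group is 1 library. LRP1 was at -0.34 on day 3 and 0.67 on day 7 (log2, relative), a difference of 1.01. MBTPS1 had -0.41 at day 3 and 0.20 at day 7, a difference of 0.61. They were not the only listed genes to do so. GRAMD1A (-0.20 and 0.34), FADS1 (-0.36 and 0.20) and SOAT1 (0.18 and -0.26) also had intervals clear of the median on both days. HSD17B7 (0.38 and -0.38), which is under 20 CPM in each library, did so too. SREBF2 (-0.47 and 0.12) and CH25H (2.03 and -0.04) changed sides too, but their day 7 intervals included the median.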

How the results depend on the processing

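Of 448 relative log2 ratios of members under the alternatives, 373 moved by less than their counting interval, 75 moved by more, and none changed sign after a call. TMM and DESeq2 size factors left the number of called members at 3, 2, 0 and 2 in the 4 comparisons (shAPC against shScr at day 3 and day 7, then day 7 against day 3 in shScr and in shAPC). Without centring on the all-gene median, 1 member, INSIG1, was called at day 3 against 18.6% of all genes, with a median of -0.20, and the median in shAPC over time was -0.17. Without a minimum level, the median at day 3 was -0.34, 4 members were called at day 7, and in shAPC over time 1 was called with a median of -0.060. With a minimum of 100 CPM no member was tested, and the median at day 3, centred on those genes, was -0.33. With CPM averaged over cells, 5 members were called at day 7 against 19% of all genes, with a median of -0.76, and 5 in shScr over time against 17.4%, with a median of 0.49. A pseudocount of 10 CPM left 1 call at day 7 and 1 in shAPC over time. In shAPC over time 1 call was also left with all deposited barcodes, with a mitochondrial limit of 10% and without the 5% of cells with most UMIs. INSIG1 at day 7 was called with all deposited barcodes, the 10% limit, a pseudocount of 0.1 CPM and CPM averaged over cells, and its relative value ran from 0.40 to 0.78. The causes of these shifts were not tested.

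No paired analysis was possible because each group holds 1 library, and no replicate was left out for the same reason. All intervals cover counting error only, and the spread between cultures is unknown. Shares of cells moved with the depth to which cells were thinned. HMGCS1, with 137 to 371 UMIs a library, had the widest intervals of the members.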
